A study of Mus musculus with 12 samples.

Results

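The 5 genes described here are Plau, Plaur, Plat, Serpinb2 and Tgm2, which encode the plasminogen activators, their receptor, one of their inhibitors and transglutaminase 2. They were chosen by gene name in the normalized expression table, where each has 1 row and 1 probe. All 5 were present among its 27676 genes, and all 5 passed the filter on dim probes that left 22461 genes for testing. The choice was made with values of these arrays known, so the members' values are given as a description, with no p-value. The study measured total RNA of PUER cells, a mouse myeloid progenitor line without its own functional PU.1 that carries a fusion of PU.1 to the estrogen receptor hormone-binding domain, on 12 one-colour Agilent mouse whole genome 4×44K arrays. Cells carried either the retroviral control vector MIGR1, which expresses GFP, or the same vector with beta-catenin-S33Y, a form of beta-catenin that resists degradation. Sorting for GFP took place 5 days after infection, and RNA was taken at 0 h, before 4-hydroxytamoxifen (4-OHT), or after 24 h with 10 nM 4-OHT, the ligand that activates the fusion. The 4 groups are MIGR1 at 0 h, MIGR1 at 24 h, beta-catenin-S33Y at 0 h and beta-catenin-S33Y at 24 h, each with 3 arrays lettered A to C. Every cell in all 4 groups carried the fusion and a virus, and no label ties the arrays of 1 group to cultures grown apart, so the errors measure the spread between arrays, which may be technical. Time in culture and the ligand cannot be told apart, because untreated cells at 24 h were not analysed here, nor were cells that lack the fusion.

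Plasminogen is a circulating zymogen that urokinase (uPA, from Plau) and tissue plasminogen activator (tPA, from Plat) cleave to plasmin, a protease that dissolves fibrin and degrades matrix. Monocytes and macrophages concentrate urokinase at their surface through its receptor uPAR (from Plaur), and inhibitors of the serpin family, among them PAI-2 (from Serpinb2), block the activators. Transglutaminase 2, an enzyme that forms bonds between glutamine and lysine side chains of proteins, acts on some of the same substrates, since crosslinked fibrin and fibronectin resist proteolysis, and it also helps macrophages take up apoptotic cells.

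Levels are normalized log2 intensities, a scale on which 1 unit is a doubling of signal, and a level is compared only with the same probe's level in other groups. A background bound was set for each array from the values below the mode of its distribution, and it lay between 7.29 and 7.56. Arrays of the same group correlated across genes with r from 0.993 to 0.995 and arrays of different groups with r from 0.979 to 0.991, across genes that are not independent replicates. The mean of 7 macrophage markers was 9.04 to 9.20 on the MIGR1 arrays at 0 h and 11.88 to 11.92 at 24 h, against 8.71 to 8.82 and 10.90 to 11.02 with beta-catenin-S33Y. The mean of 5 eosinophil markers was 6.68 to 7.34 and 7.39 to 8.13 with MIGR1, against 11.65 to 11.80 and 11.29 to 11.49 with beta-catenin-S33Y, and the mean of 8 mast cell and basophil markers was 8.17 to 8.23 and 7.72 to 7.84, against 9.07 to 9.15 and 8.66 to 8.77. In the latter list Cpa3 (6.30 at 0 h with MIGR1, below background on all MIGR1 arrays, and 10.63 with beta-catenin-S33Y) and Hdc (9.03 and 11.75) were the markers furthest apart, and Fcer1a, Tpsb2 and Tpsab1 were below background on all arrays. At 0 h Mcpt8 (10.47 and 10.29) and Ms4a2 (7.38 and 6.94, near background) were lower with beta-catenin-S33Y, and Kit was higher (12.80 and 13.06). Of 6 neutrophil markers with a row, Camp (13.98 to 10.88 with MIGR1, 13.35 to 11.28 with beta-catenin-S33Y) and Ngp (15.61 to 13.48 and 15.65 to 14.52) were lower at 24 h and Mmp8 was higher (8.23 to 11.02 and 7.95 to 9.18). The array mean of the list ran from 12.18 to 12.80 over all groups. In that list the group means of S100a8 (15.97 to 16.08) and Mpo (15.30 to 16.08) were near the top of the scale. Those of Ltf (6.52 to 7.74) were near or below background. Lyz2 among the macrophage markers (15.96 to 16.08) and Prg2 among the eosinophil markers with beta-catenin-S33Y (15.97 and 16.06) were also near the top, so list means may understate differences. Many of these marker values move with time or vector beside the comparisons below, and their part in the members' differences was not tested. Of 5 endothelial markers 1, Pecam1, was above background in each group, and of 5 fibroblast markers likewise 1, Col1a2. The transcript of Ctnnb1, the gene altered in the vector, differed by 0.01 ± 0.09 (SE) between the vectors at 0 h (limma, adjusted p = 0.949) and by -0.10 ± 0.09 at 24 h (adjusted p = 0.515), so the array does not check the vector labels through this gene. The position of its probe relative to the inserted sequence is not given in the sources used here. Axin2, also looked at as a check, was below background on all arrays. Spi1, the gene of PU.1, listed as Sfpi1, changed by -0.49 ± 0.11 over 24 h with MIGR1 (limma, adjusted p = 0.00741) and passed in no other comparison.

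Plau was lower after 24 h of 4-OHT with either vector. The 3 MIGR1 arrays read 9.39, 9.63 and 9.40 at 0 h and 7.93, 8.04 and 8.10 at 24 h. The 3 beta-catenin-S33Y arrays read 9.77, 9.66 and 9.72 at 0 h and 8.42, 8.41 and 8.27 at 24 h. Both arms thus separated by time with no overlap, and beta-catenin-S33Y lay slightly above MIGR1 at each time, also with no overlap. With 3 arrays per group such separation was common: over time 35.5% of the 22461 genes did not overlap with MIGR1 and 32.7% with beta-catenin-S33Y. Between the vectors 33.3% did not overlap at 0 h and 31.8% at 24 h, so separation alone does not mark out a member. For Plau the difference between 24 h and 0 h was -1.45 ± 0.10 (SE, 3 against 3 arrays), or 2.73-fold lower, with MIGR1. With beta-catenin-S33Y it was -1.35 ± 0.10, or 2.55-fold lower. The responses differed from each other by 0.10 ± 0.14, within its SE of zero, and beta-catenin-S33Y exceeded MIGR1 by 0.24 ± 0.10 at 0 h and 0.34 ± 0.10 at 24 h. In these bulk samples fewer cells that make a transcript and less of it per cell cannot be told apart.

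Plaur had the opposite arrangement: its level followed the vector more than the time. The MIGR1 arrays read 14.63, 14.62 and 14.55 at 0 h and 14.27, 14.42 and 14.38 at 24 h. The beta-catenin-S33Y arrays read 13.28, 13.03 and 13.11 at 0 h and 13.35, 13.53 and 13.48 at 24 h. Every MIGR1 array was above every beta-catenin-S33Y array, and within each vector the times did not overlap. With beta-catenin-S33Y the receptor transcript was lower by 2.76-fold at 0 h (log2 difference -1.47 ± 0.09) and by 1.88-fold at 24 h (-0.91 ± 0.09). The 4-OHT responses were small and of opposite sign, -0.24 ± 0.09 with MIGR1 and 0.31 ± 0.09 with beta-catenin-S33Y, a difference of 0.56 ± 0.13 between them. Over other settings they ran from -0.28 to -0.20 and from 0.24 to 0.38.

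The urokinase receptor gene has an upstream region that RefSeq places, in GRCm38.p6, at chr7:24462233-24462482 on the plus strand. Among the members, promoter windows were at hand for Plaur and Serpinb2 only, so these are the ones shown. Capitals mark matches to letters searched on both strands: TGANTCA for AP-1, GAGGAA for PU.1 and GGGCGG for Sp1.
Plaur, 250 bases before the start site: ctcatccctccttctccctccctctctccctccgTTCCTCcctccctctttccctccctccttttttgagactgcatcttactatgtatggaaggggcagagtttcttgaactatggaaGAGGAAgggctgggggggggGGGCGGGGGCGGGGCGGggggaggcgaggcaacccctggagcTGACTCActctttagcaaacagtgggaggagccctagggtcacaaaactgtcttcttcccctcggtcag
The PU.1 letters occur at -131 on the plus strand and, as TTCCTC, at -216 on the minus strand, the AP-1 letters at -69, and the Sp1 letters at -111, -105 and -100, of which the last pair share 1 base. Among 32851 promoter windows of 300 bases, 28.3% hold the PU.1 letters, 7.81% the AP-1 letters and 35.7% the Sp1 letters. The PU.1 and Sp1 matches are thus common and the AP-1 match less so, and all of them describe the sequence only. The letters CTTTGA of TCF/LEF factors, the partners of beta-catenin on DNA, which 16.0% of windows hold, were not found in this window, which says nothing about those factors elsewhere.

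Plat was close to background throughout. The MIGR1 arrays read 7.68, 7.37 and 7.31 at 0 h and 7.73, 7.70 and 7.60 at 24 h. The beta-catenin-S33Y arrays read 7.22, 7.27 and 7.23 at 0 h and 7.48, 7.27 and 7.26 at 24 h. The probe was at or above its array's bound on 2, 3, 0 and 1 of 3 arrays in these groups, in that order, so tissue-type activator was above background on all arrays of 1 group only, MIGR1 at 24 h. Groups next to each other in level overlapped in every case, while the vectors did not overlap at either time. The differences were 0.23 ± 0.11 and 0.10 ± 0.11 over time and -0.21 ± 0.11 and -0.34 ± 0.11 between the vectors. No fold is given at this signal. The difference over time with beta-catenin-S33Y changed sign when the scanned intensities were normalized in other ways, to -0.05 and -0.11.

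Serpinb2 was highest with beta-catenin-S33Y before 4-OHT. The beta-catenin-S33Y arrays read 9.49, 9.46 and 9.61 at 0 h and 8.26, 8.32 and 7.82 at 24 h. The MIGR1 arrays read 7.69, 7.46 and 7.51 at 0 h and 7.16, 7.09 and 6.86 at 24 h, all 3 of the latter below the bound. All 4 groups were separate, in the order beta-catenin-S33Y at 0 h, beta-catenin-S33Y at 24 h, MIGR1 at 0 h and MIGR1 at 24 h. The inhibitor transcript was 3.90-fold higher with beta-catenin-S33Y at 0 h (log2 difference 1.96 ± 0.14), a difference that ranked 30 from the highest of 22461 genes. At 24 h it was at least 1.72-fold higher (fitted difference 1.10 ± 0.14). Over 24 h of 4-OHT it was 2.61-fold lower with beta-catenin-S33Y (-1.38 ± 0.14). With MIGR1 it was at least 1.15-fold lower (fitted difference -0.52 ± 0.14), and this arm started near background and ended below it, which limits how far the value could fall. The fitted responses differed by -0.86 ± 0.19.

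Serpinb2 has 2 start sites in the RefSeq table. The region before the first, shown here, lies in GRCm38.p6 at chr1:107511173-107511422 on the plus strand. Capitals mark the AP-1 letters and TATAAA, the TATA box.
Serpinb2, 250 bases before the first start site: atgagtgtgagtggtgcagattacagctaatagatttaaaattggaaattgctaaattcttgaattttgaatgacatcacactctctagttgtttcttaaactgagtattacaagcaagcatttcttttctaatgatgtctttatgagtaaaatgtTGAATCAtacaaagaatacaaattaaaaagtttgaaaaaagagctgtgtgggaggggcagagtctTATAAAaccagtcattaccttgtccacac
The AP-1 letters lie at -94 and the TATA box at -29, which 13.6% of the promoter windows hold. PU.1, Sp1 and TCF/LEF letters were not found in this window. The window of the other start site holds the same AP-1 and TATA matches at -181 and -116. These 2 of the 5 members have promoters in the table, and both hold the AP-1 letters, which 7.81% of the promoter windows hold. Nothing is read from this count, and a shared regulation was not tested.

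Tgm2 showed the largest differences over time among the members. The MIGR1 arrays read 14.35, 14.95 and 15.04 at 0 h and 11.07, 11.17 and 11.14 at 24 h. The beta-catenin-S33Y arrays read 13.39, 13.41 and 13.53 at 0 h and 10.75, 10.54 and 10.38 at 24 h. The 4 groups were separate, both 0 h groups stood far above both 24 h groups, and within the MIGR1 group at 0 h array A stood apart below the others. Transglutaminase 2 was 12.6-fold lower at 24 h with MIGR1 (log2 difference -3.65 ± 0.16) and 7.39-fold lower with beta-catenin-S33Y (-2.89 ± 0.16). These differences ranked 5 and 1 from the lowest of the 22461 genes. It was also lower with beta-catenin-S33Y than with MIGR1, by 2.52-fold at 0 h (-1.34 ± 0.16) and by 1.48-fold at 24 h (-0.57 ± 0.16), and the responses differed by 0.77 ± 0.23. No member reached the scan ceiling on any array.

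**Figure D1:**
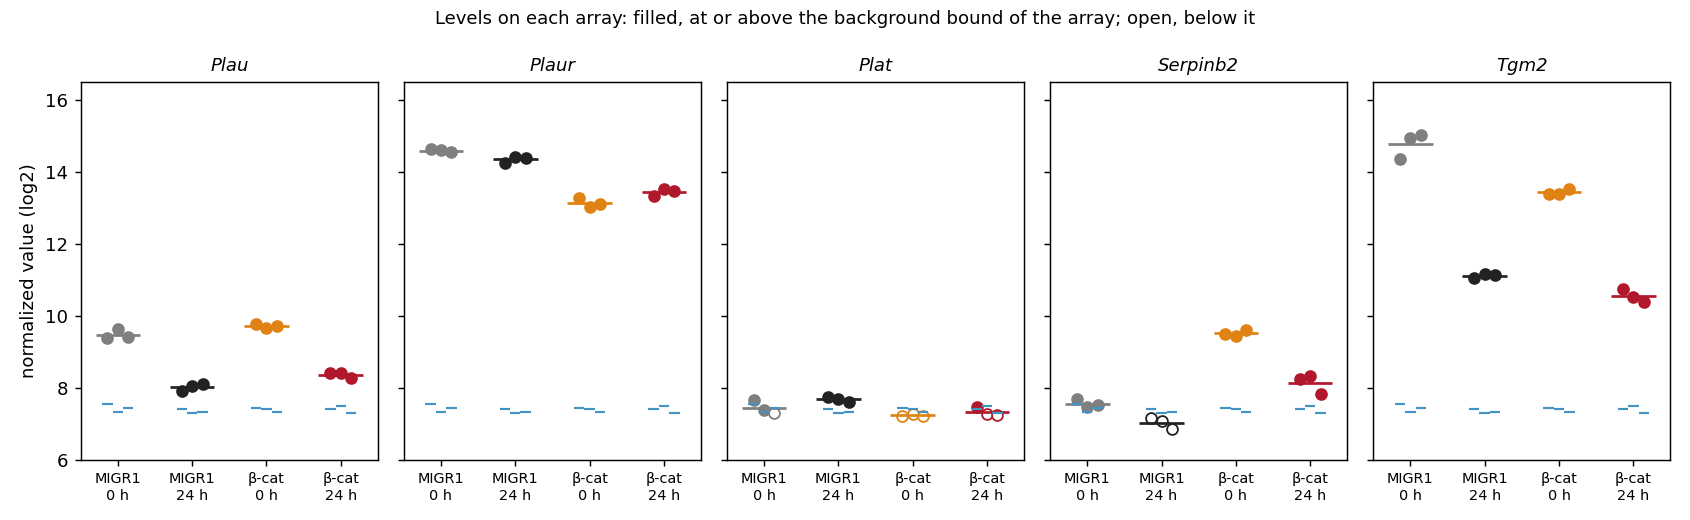
Normalized log2 level (vertical axis) of the 5 genes on each of 12 arrays, in the 4 groups of vector (MIGR1 or beta-catenin-S33Y, written β-cat) and time on 4-OHT. Points are arrays A, B and C from left to right, horizontal lines are group means, short blue lines are the arrays' background bounds, and open points lie below the bound. Tgm2 drops with time in both vectors, Plaur is split by the vector, and Plat stays at the bounds.

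In limma's fit across all genes, with all 12 arrays and Benjamini-Hochberg adjustment over the 22461 genes, 22.7% passed an adjusted p of 0.05 for the 4-OHT response with MIGR1 (11.9% higher, 10.8% lower), 14.3% for the response with beta-catenin-S33Y (8.02% higher, 6.32% lower), 11% between the vectors at 0 h (4.38% higher, 6.62% lower with beta-catenin-S33Y), 18.6% between them at 24 h (8.68% higher, 9.88% lower) and 7.17% for the difference between both responses (3.74% higher, 3.43% lower). Of the members, 3, 4, 3, 5 and 2 were past that threshold in these comparisons. Nothing is read from those counts, because the members were chosen with these contrasts known. Plaur's response with beta-catenin-S33Y and Plat's vector difference at 24 h were each on the other side of the threshold in 14 of 21 other settings. Scaling to the 75th percentile changed the split over all genes from 2674 higher and 2422 lower to 2058 and 3327 for the response with MIGR1, and from 1950 and 2219 to 2615 and 1753 between the vectors at 24 h. The comparisons share groups of arrays, so a member's values in them are not independent of each other. Plau, Serpinb2 and Tgm2 were lower after 4-OHT with either vector, Plaur and Tgm2 were lower with beta-catenin-S33Y at both times, and Serpinb2 was higher with beta-catenin-S33Y at both times. Over the 12 arrays, which fall into 4 groups, Plau and Tgm2 had a Pearson r of 0.88 and Plaur and Serpinb2 one of -0.86. Within groups, after subtraction of group means, those values were 0.48 and -0.11. Pairs with Plat, which is near background, reached 0.57 (with Serpinb2) and -0.52 (with Tgm2) within groups. Both values over the 12 arrays are thus read as patterns of group means only.

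**Figure D2:**
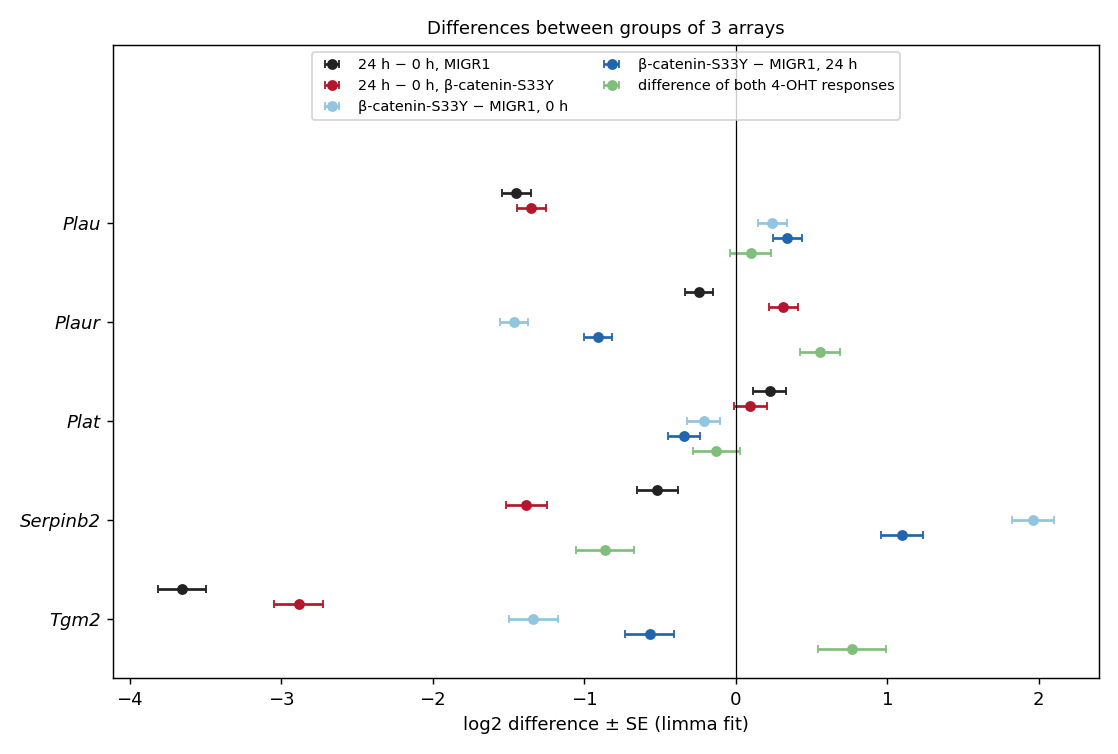
Log2 differences between groups of 3 arrays with their SE from limma (horizontal axis) for the 5 genes, in 5 comparisons given by colour. The 4-OHT responses of Plau with either vector differ by less than the SE of that difference, those of Plaur lie on opposite sides of 0, and Serpinb2 is the only member with differences above 1 in the positive direction, both between the vectors.

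The rest of the plasminogen system was followed in a list of 41 genes, of which 39 were tested and 11 were below background on all arrays. The list was drawn up with earlier results of these arrays known. Over all genes 11.9% rose and 10.8% fell with MIGR1, and 8.02% rose and 6.32% fell with beta-catenin-S33Y. Between the vectors 4.38% were higher and 6.62% lower at 0 h, and 8.68% higher and 9.88% lower at 24 h. Counts in this list, its parts and the lists below are to be read beside these shares, and no list was tested as a set. After 4-OHT 11 of the 39 rose and 7 fell with MIGR1 (median log2 difference 0.19, against 0.00 over all genes), and 12 rose and 1 fell with beta-catenin-S33Y (median 0.20 against 0.02). With beta-catenin-S33Y 2 were higher and 11 lower than with MIGR1 at 0 h (median -0.06 against 0.01), and 1 was higher and 10 lower at 24 h (median -0.08 against 0.03). The 7 that fell with MIGR1 became 4 without MIGR1 0 h array A or B or MIGR1 24 h array B or C. The 2 higher at 0 h became 1 without MIGR1 array A or C or beta-catenin-S33Y array B or C, the 1 higher at 24 h became 2 without beta-catenin-S33Y array B, and the 1 that fell with beta-catenin-S33Y became 2 without MIGR1 24 h array A. The response with beta-catenin-S33Y lay above that with MIGR1 for 6 and below it for 5.

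Among the inhibitors, Serpine2, which encodes protease nexin-1, an inhibitor of urokinase and thrombin, was higher with beta-catenin-S33Y by 0.70 ± 0.14 at 0 h (adjusted p = 0.00625) and by 1.08 ± 0.14 at 24 h (adjusted p = 0.000211). Its decrease with MIGR1 of -0.42 ± 0.14 was marginal (adjusted p = 0.0449) and missed the threshold without any 1 of the 3 MIGR1 arrays at 0 h, MIGR1 24 h array B or C, beta-catenin-S33Y 0 h array B or beta-catenin-S33Y 24 h array C, and with no filter on dim probes. Like Serpinb2, it was higher with beta-catenin-S33Y at both times. Serpinf2, which encodes the plasmin inhibitor alpha-2-antiplasmin, and Plg, plasminogen itself, were each above the bound on 1 of 12 arrays.

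Of 8 genes for plasminogen and for proteins that bind it at the cell surface, 3 rose and 1 fell with MIGR1 and 5 rose with beta-catenin-S33Y. S100a10, the subunit of the annexin A2 complex that binds plasminogen, rose 5.26-fold with MIGR1 (log2 2.40 ± 0.11, adjusted p = 1.55e-08) and 2.35-fold with beta-catenin-S33Y (1.23 ± 0.11, adjusted p = 1.29e-05). The responses differed by -1.16 ± 0.16 (adjusted p = 0.00094). Itgam, the alpha chain of the integrin Mac-1 and itself one of the 7 macrophage markers, rose 4.63-fold and 3.88-fold, and this difference in response did not pass (adjusted p = 0.385). Anxa2 (annexin A2) was lower with beta-catenin-S33Y at 0 h (fitted log2 difference -1.22, adjusted p = 2.38e-05), a lower bound on the size, since 2 of the 3 MIGR1 arrays were at the scan ceiling. It rose with beta-catenin-S33Y by 0.66 ± 0.11 over 24 h (adjusted p = 0.00163). Plgrkt, the plasminogen receptor with a C-terminal lysine, listed as 5033414D02Rik, rose by 0.56 ± 0.09 with MIGR1 (adjusted p = 0.000803) and changed by -0.15 ± 0.09 with beta-catenin-S33Y (adjusted p = 0.352). The gene that fell with MIGR1 was Eno1 (alpha-enolase, also a plasminogen-binding protein), at -0.46 ± 0.13, and it rose by 0.62 ± 0.13 with beta-catenin-S33Y; it is named after its values were seen. At 24 h 5 of the 8 were lower with beta-catenin-S33Y.

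Of 13 tested partners and uptake receptors of uPAR or of activator-inhibitor complexes, 5 rose and 2 fell with MIGR1 and 4 rose with beta-catenin-S33Y. Lrp1, the receptor that internalises urokinase bound to its inhibitor, rose 2.40-fold with MIGR1 (adjusted p = 0.00025) and 3.55-fold with beta-catenin-S33Y (adjusted p = 3.19e-05), and was lower with beta-catenin-S33Y by 3.46-fold at 0 h and 2.34-fold at 24 h. Like Plaur, it was lower with beta-catenin-S33Y at both times. Fpr1 and Fpr2 (the latter listed as Fpr-rs2), formyl peptide receptors that signal with uPAR in leukocytes, were below background at 0 h in both vectors. They rose at least 4.97-fold and at least 5.78-fold with MIGR1 and at least 1.14-fold and at least 1.98-fold with beta-catenin-S33Y. Of the 8 proteases and growth factors that plasmin activates or acts beside, 3 rose and 2 fell with MIGR1 and 3 rose and 1 fell with beta-catenin-S33Y. Mmp9, a gelatinase secreted by macrophages, rose at least 37.2-fold with MIGR1 (adjusted p = 8.67e-10) and at least 3.47-fold with beta-catenin-S33Y (adjusted p = 1.3e-06), and was 11.1-fold lower with beta-catenin-S33Y at 24 h (adjusted p = 2.84e-07). Factors of contact activation, 3 genes, were below background on all arrays.

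**Figure D3:**
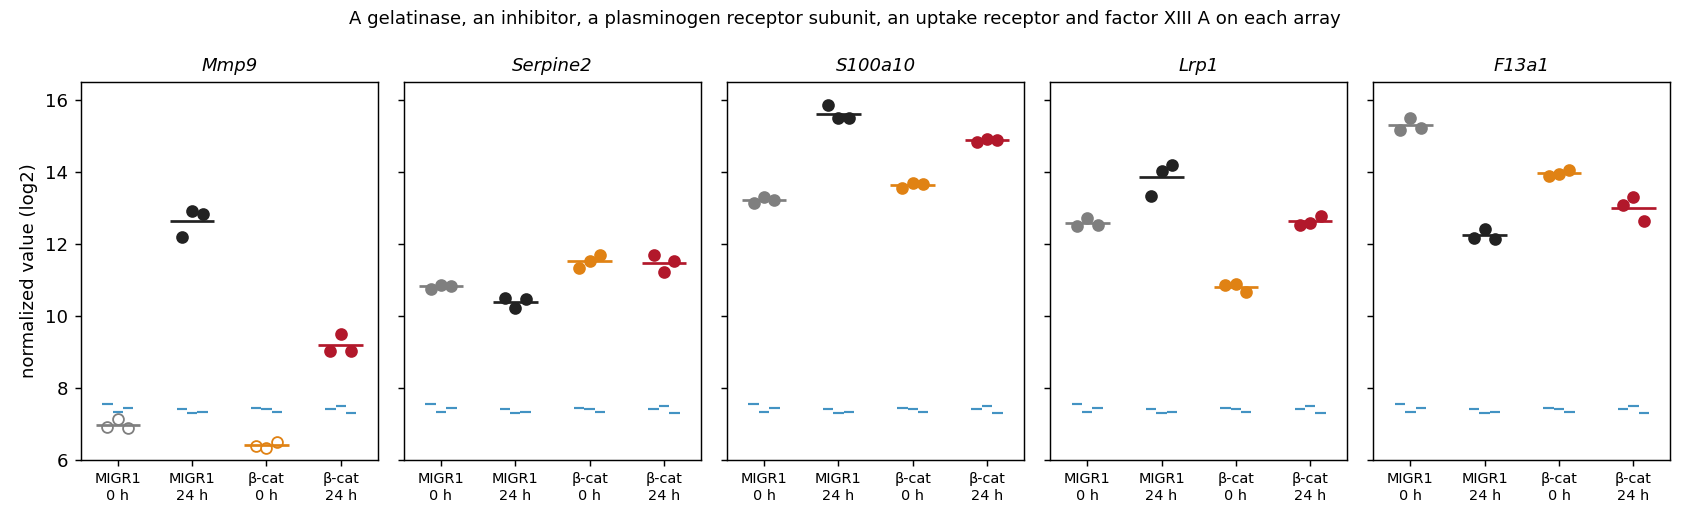
Normalized log2 level of 5 genes around the members on each array, drawn as in the plot of the members' levels. Mmp9 lies below the bounds at 0 h with each vector, S100a10 and Lrp1 are higher at 24 h with each vector, and F13a1 is lower at 24 h with each.

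Genes related to Tgm2 were followed in a list of 36, of which 32 were tested and 12 were below background on all arrays. After 4-OHT 9 rose and 6 fell with MIGR1 (median log2 difference 0.04), and 6 rose and 2 fell with beta-catenin-S33Y (median -0.01). With beta-catenin-S33Y 4 were higher and 7 lower at 0 h (median 0.14), and 2 higher and 7 lower at 24 h (median 0.08), with 4 higher without beta-catenin-S33Y 24 h array A. F13a1, the A subunit of factor XIII, the transglutaminase that crosslinks fibrin, fell 8.34-fold with MIGR1 (log2 -3.06 ± 0.16, adjusted p = 4.37e-08) and 1.95-fold with beta-catenin-S33Y (-0.96 ± 0.16, adjusted p = 0.00145). The responses differed by 2.10 ± 0.22 (adjusted p = 0.000185). Like Tgm2 it was lower with beta-catenin-S33Y at 0 h (2.52-fold, adjusted p = 0.00017), but at 24 h it was higher (1.70-fold, adjusted p = 0.00556), where Tgm2 was lower. The other transglutaminase gene to pass was Tgm1, which fell by 0.37 ± 0.09 with MIGR1 and was lower with beta-catenin-S33Y at both times; it is named after its values were seen, and 5 of the 7 tested genes of this group were below background.

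Of the partners of transglutaminase 2 at the cell surface, all 5 tested rose with MIGR1 and 3 of the 5 rose with beta-catenin-S33Y, where 11.9% and 8.02% of all genes were higher. Mfge8, a bridge between apoptotic cells and integrins, rose 4.74-fold and 2.77-fold (adjusted p = 3e-08 and 3.46e-06). Adgrg1, an adhesion receptor that binds transglutaminase 2 and is listed as Gpr56, rose 4.48-fold and 1.70-fold, and the responses differed by -1.40 ± 0.15 (adjusted p = 0.000236). Sdc4 (syndecan-4, a heparan sulfate proteoglycan) was at least 5.08-fold lower with beta-catenin-S33Y at 0 h (adjusted p = 1.44e-07) and 6.43-fold lower at 24 h (adjusted p = 7.44e-08). At 24 h 4 of the 5 were lower with beta-catenin-S33Y.

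Of 20 tested genes of coagulation and fibrin, 4 rose and 4 fell with MIGR1, and 3 rose and 1 fell with beta-catenin-S33Y. Procr, the endothelial protein C receptor, rose 8.64-fold and 4.78-fold (adjusted p = 1.08e-09 and 4.98e-08), on arrays where 4 of 5 endothelial markers were not above background. F3, tissue factor, the trigger of coagulation, fell by 0.86 ± 0.15 with MIGR1 (adjusted p = 0.000886) and was at least 2.09-fold lower with beta-catenin-S33Y at 0 h (adjusted p = 0.000395). F10, coagulation factor X, was lower with beta-catenin-S33Y at 0 h (fitted log2 difference -1.13, adjusted p = 1.89e-05), likewise a lower bound on the size with 2 of the 3 MIGR1 arrays at the scan ceiling. Fgl2, which encodes a membrane prothrombinase, was 2.43-fold higher there (adjusted p = 7.04e-06).

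Serpinb2 belongs to clade B, the serpins that largely stay inside cells. Of 26 relatives listed, 15 were tested and 3 of these were below background on all arrays. After 4-OHT 1 rose and 6 fell with MIGR1 (median log2 difference -0.26), and 1 rose and 3 fell with beta-catenin-S33Y (median -0.17). With beta-catenin-S33Y 3 were higher and 1 lower at 0 h (median 0.06), and 3 higher and 1 lower at 24 h (median 0.20). Without MIGR1 0 h array B, 2 rose with MIGR1, and without beta-catenin-S33Y 24 h array B, 2 were lower at 24 h. Serpinb10, a serpin of bone marrow cells, lies next to Serpinb2 in the RefSeq gene order. It fell 3.18-fold with MIGR1 (adjusted p = 2.07e-06) and 2.37-fold with beta-catenin-S33Y (adjusted p = 6.64e-05), and was higher with beta-catenin-S33Y by 1.90-fold at 0 h (adjusted p = 0.000792) and by 2.56-fold at 24 h (adjusted p = 3.14e-05). Its 4 directions are those of Serpinb2, and the Pearson r of the pair over 12 arrays was 0.88. The next gene on that side, Serpinb8, fell by 0.79 ± 0.09 with MIGR1 (adjusted p = 5.04e-05) and was lower with beta-catenin-S33Y at 0 h by 0.40 ± 0.09 (adjusted p = 0.0176), the direction opposite to Serpinb2. At 0 h the calls of Serpinb8 and Serpinb1c (0.44 ± 0.12, adjusted p = 0.0383) were lost without array A or B of either vector, which left 2 of the 4. On the other side, Serpinb7, Serpinb11 and Serpinb3c did not pass, with differences between -0.32 and 0.41. Group means of Serpinb7 (6.35 to 6.52) and Serpinb11 (6.23 to 6.63) were below the lowest background bound of 7.29. Those of Serpinb3c (7.59 to 7.90) were near the bounds. The missing calls of these genes are thus no measure of an unchanged level. Serpinb1b and Serpinb1c, near-identical copies whose signals may not be separate, fell 2.94-fold and 2.91-fold with MIGR1 and were each 2.04-fold higher with beta-catenin-S33Y at 24 h. Serpinb12 was the relative that rose, at least 14.2-fold with MIGR1 (adjusted p = 5.92e-10) and at least 1.79-fold with beta-catenin-S33Y (adjusted p = 8.18e-06), from below background in both.

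**Figure D4:**
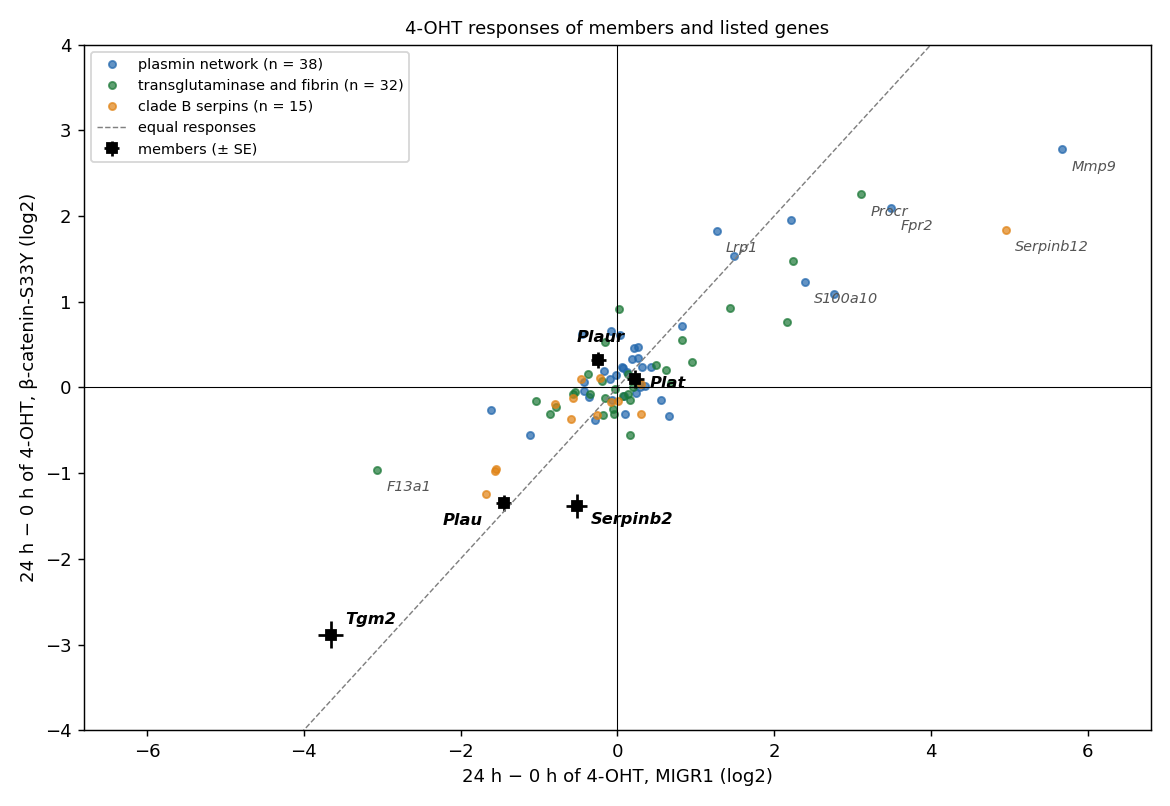
Log2 difference between 24 h and 0 h of 4-OHT with MIGR1 (horizontal axis) against that with beta-catenin-S33Y (vertical axis). Black squares are the 5 members with the SE of each difference, coloured points are tested genes of the 3 lists (all but 1 of the plasmin network), and the dashed line marks equal responses. Tgm2 is the lowest point on the vertical axis, Plau lies near the line, and Mmp9 and Serpinb12 lie far from it.

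For each member, the 4 genes most like it across the 12 arrays were found by Pearson r among 1505 genes whose group means span at least 1 log2 unit, as a description of group patterns. Plau was nearest to Gvin1, an interferon-inducible GTPase gene (r = 0.987). Next came Slco4a1, Hif1a, the oxygen-regulated transcription factor, and Ly6a, which encodes Sca-1, each with a rounded r of 0.981. Hif1a ran from 13.61 and 13.89 at 0 h to 12.88 and 13.06 at 24 h. Plaur was nearest to Gpat3 (r = 0.989, listed as A230097K15Rik), Dusp1, a phosphatase of MAP kinases (0.986), Trf, transferrin (0.978), and Arl4c (0.976). Dusp1 stood at 12.31 and 11.39 with MIGR1 against 8.58 and 9.33 with beta-catenin-S33Y, so like Plaur it was split by the vector and had 4-OHT differences of opposite sign. Plat, near background, was nearest to Pimreg (r = 0.901, listed as 6720460F02Rik), Id2, Il15 and Axl. Serpinb2 was nearest to Clstn1 (r = 0.989), Wif1, a secreted inhibitor of Wnt ligands (0.987), Mmp28 and Spns3. The mean of Wif1 was 7.95 with beta-catenin-S33Y at 0 h and 6.76 at 24 h, against 6.24 and 5.78 with MIGR1. All but the first are below the lowest background bound of 7.29, so its likeness rests on the group where Serpinb2 was highest. Tgm2 was nearest to Aoah, acyloxyacyl hydrolase (r = 0.994), Car4, carbonic anhydrase (0.982), Mmrn1 and Tmem191c. At 24 h the means of Mmrn1, 7.03 with MIGR1 and 6.84 with beta-catenin-S33Y, were also below that bound. Ranking by Spearman rho kept 0 of the 4 names for Plau, Plaur and Tgm2, 2 for Plat and 1 for Serpinb2, so the names depend on the measure of likeness.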

How the data were processed

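Expression was measured on 12 arrays in 4 groups of 3, taken from the sample labels. The deposited table holds normalized log2 values, and the deposited scanner table holds intensity per spot with no background subtracted. The series matrix held the same log2 values (largest difference 0). Per the submitters' processing notes limma was used, while its version, the background correction and the build remain unstated in those notes. The table names genes: 14728 names matched RefSeq symbols directly and 4294 by synonym. Genes at or above the 30th percentile on at least 3 arrays were fitted with limma 3.58.1 (R 4.3.3) on group means with an empirical Bayes variance and Benjamini-Hochberg adjustment, and the calculation was tested on simulated data. A gene was called at an adjusted p below 0.05. A background bound, the mode plus 3 SD of the values below it, was set per array. A fold is read against that bound and written "at least" where an array of the dimmer group lies below it, and the scan ceiling was 65535. The precision is limited by the number of arrays.

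The members and the gene lists were chosen with earlier results of these data known. Named genes are the 4 called genes of largest difference per list and comparison whose groups do not overlap, plus a set of central genes of the plasmin system and coagulation. Of the plasmin list, 1 gene is counted but not reported here. Arrays of the same letter in both vectors at 24 h deviated together weakly (r = 0.188, 0.189 and 0.149, and at most 0.0015 between different letters). The labels do not say that the letters pair arrays, so a pairing in that comparison is possible but not known. In the other comparisons arrays of the same letter did not deviate together in every pair (lowest r = -0.17). The SE and adjusted p printed between the vectors at 24 h come from the fit without such a pairing. Alternatives were another background correction and normalization, 75th percentile scaling, other filters, array weights, a moderated prior with trend, the replicate block, only the groups compared and each array left out. Other probes of the members and their protein sequences were not used here.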

Additional observations from a re-analysis of the deposited data

Results flagged for a closer look

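The genes around the members named here were picked because they were called for a difference in 4-OHT response between the vectors. Their adjusted p (limma interaction) ran from 1.37e-05 to 0.0174, which follows from that choice and adds no support. In the plasmin network the response with beta-catenin-S33Y minus that with MIGR1 was -2.90 (log2) for Mmp9, -1.67 for Fpr1 and -1.40 for Fpr2. All 3 were below background on every 0 h array, so these fitted values rest on unmeasured starting levels and are no bound. At 24 h, where they were measured, they were 11.1-fold, 4.51-fold and 3.01-fold lower with beta-catenin-S33Y. Among genes related to transglutaminase it was 2.10 for F13a1, -1.40 for Adgrg1, 0.90 for F10 and 0.88 for Thbd (thrombomodulin). On 2 of the 3 MIGR1 arrays at each time F10 read at the scan ceiling, where no further rise can show, so its value is not a measured difference of responses. Among the clade B serpins it was -3.12 for Serpinb12, 0.60 for Serpinb8 and 0.58 for Serpinb1b. Serpinb12 was also below background on every 0 h array and was 8.14-fold lower with beta-catenin-S33Y at 24 h.

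The 4-OHT responses of Plaur had opposite signs, -0.24 with MIGR1 and 0.31 with beta-catenin-S33Y, with no overlap of the times in either vector. Of all genes, 35.5% with MIGR1 and 32.7% with beta-catenin-S33Y had no such overlap either. Plaur's response with MIGR1 was not past the threshold, and that with beta-catenin-S33Y fell short of it in 14 of 21 other settings. The difference between the responses is given without a p-value, since the members were chosen on these values. Its place relative to the threshold changed in 6 of 20 other settings. Groups of 3 arrays are too small for a check of single outlying arrays.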

How the results depend on the processing

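Results were recomputed under up to 21 other settings (20 for differences between responses, and 19 or 20 for Anxa2 and F10), and no difference that passed the threshold for a member or a named gene changed sign, while the balance of higher against lower calls over all genes did. Of 520 recomputed member differences 511 moved by less than the spread between arrays, and 9 moved more. Of these, 7 belong to Plat, and the others are Plau between the vectors at 24 h (0.44) and Plaur's difference of responses (0.47), both with normexp and quantile normalization of the scanned intensities. Of 1660 recomputed values of named genes 1629 kept their call and 31 lost it. Array weights raised the genes called to 5060 for the response with beta-catenin-S33Y (3220 without), 4350 between the vectors at 0 h (2469) and 2810 for the difference of responses (1610). With normexp and quantile normalization 5 clade B serpins passed for the difference of responses, 3 members passed between the vectors at 24 h and 1 for the difference of responses. With only the groups compared, 3 members passed between the vectors at 24 h. When arrays were left out one at a time, genes called between the vectors at 0 h ran from 1547 (without beta-catenin-S33Y 0 h array B) to 2968, with 1633 without MIGR1 array B and 1624 without beta-catenin-S33Y array C. Clade B serpins called there ran from 2 to 4, with 2 without array A or B of either vector. Members past the threshold between the vectors at 24 h ran from 2 to 5 and for the difference of responses from 0 to 2; the first was 2 or 3 without any 24 h array but beta-catenin-S33Y array A, and the second 0 without beta-catenin-S33Y 0 h array C and 1 without array B of either vector at 0 h or beta-catenin-S33Y 24 h array C. The replicate block left 4004 genes called between the vectors at 24 h, against 4169, with 5 members past the threshold in both, and moved no other count of genes called by over 1.5 times. In the other comparisons, where arrays of the same letter did not deviate together in every pair, the block gave 4965, 3080, 2245 and 1441 genes called. Scaling to the 75th percentile moved the median of all genes for the response with MIGR1 to -0.12 and changed the split of calls there to 2058 higher and 3327 lower (2674 and 2422 in the deposited normalization). It gave 1484 and 1717 for the response with beta-catenin-S33Y (1801 and 1419) and 2615 and 1753 between the vectors at 24 h (1950 and 2219). Normexp gave 2614 and 2947, 1859 and 1930, and 2590 and 2192 for these comparisons, and 1552 and 1566 between the vectors at 0 h (983 and 1486). Calls that were lost under some settings were Serpine2 with MIGR1 (9 settings, the replicate block among them), Serpinb1c (7), S100a10 (5) and Serpinb8 (4) at 0 h, and F3 at 24 h (6, adjusted p up to 0.0905). The cause of these shifts was not tested. Signal near background limits Plat in every group and Serpinb2 with MIGR1.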
